A study of Homo sapiens with 4 samples.

Results

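This account describes 38 genes of the short arm of chromosome 8 in Raji cells. Raji is an established line of Burkitt lymphoma, a germinal-centre B-cell tumour, and carries Epstein-Barr virus. The genes were listed by symbol with earlier results of these arrays known, and each was represented by its brightest probe set that names that gene alone. They are 38 of the 19775 genes that the arrays measure with such a probe set, and 98 probe sets belong to them. One of them is listed under its older symbol FAM160B2 and was found through its gene identifier as FHIP2B. The annotation places all 38 on chromosome 8. The study compared a Raji clone whose DLEU1, a gene for a long non-coding RNA, was downregulated by TALENs with a wild-type Raji clone as the control. TALENs are engineered nucleases that act in pairs, and the labels do not give their target site within DLEU1. Each clone was measured on 2 Affymetrix HGU133_plus_2 arrays, and both were grown in RPMI medium with serum. Each genotype is thus 1 clone, so a difference between the groups is a difference between these clones. The labels do not say whether the duplicates were separate cultures, so the p-values rest on a spread among duplicates that could be technical alone. The labels carry the note on TALEN treatment for all 4 samples, the control included, and do not say how the control clone was handled.

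The short arm of chromosome 8 carries genes of many unrelated functions, among them subunits of protein phosphatases, of the Integrator complex that processes small nuclear RNAs, of the ESCRT machinery that pinches off membranes, and a cluster of death receptors for the ligand TRAIL. In tumour biology the arm is known as a frequent site of allelic loss in carcinomas and in some lymphomas. The long arm carries MYC, the oncogene whose translocation defines Burkitt lymphoma. The members share position on the arm, not a pathway.

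All levels below are signal intensities after quantile normalization, which gives the arrays the same distribution of values. Differences are on the scale of log2(intensity + 16), control subtracted from DLEU1-downregulated, with the standard error of limma's fit. A percentage of the control level is the same difference on a linear scale, with the 16 still added to both levels. The added 16 understates the change of dim genes. A gene is said to be called when its limma p-value, adjusted by the Benjamini-Hochberg method over all 32768 probe sets tested, lay under 0.05. The members were chosen with this contrast in view, so their values and counts describe them and test nothing. In RNA from bulk cells, less RNA per cell and fewer cells that make it cannot be told apart.

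Across the arrays as a whole, the deposited intensities had 2% trimmed means of 131 to 163 on the control arrays and 172 to 197 on the downregulated arrays. Normalized log2 values of the 13292 tested genes correlated at 0.991 between the control arrays, 0.993 between the downregulated arrays and 0.964 to 0.966 between clones. DLEU1 had intensities of 1385 and 1286 in the control clone, against 499 and 507 in the downregulated clone, a log2 difference of -1.38 ± 0.07 (limma adjusted p = 2.90e-06). The 6 assignments of 4 arrays allow no p below 0.333 in an exact two-sided permutation test, which was the value found. Of 8 B-cell markers, 7 were measured, all of them tested, 4 called lower and 1 higher, and their summed intensity was 29210 to 29546 in the control clone and 28405 to 28566 in the downregulated clone. Those called lower were CD22 (-0.93), CD79B (-0.41), PAX5 (-0.23) and CD79A (-0.21), and CD74 was called higher (0.60). As deposited CD74 alone kept its call. The B-cell surface protein MS4A1 and the class II gene HLA-DRA were not called. They were the brightest of the 7 and weigh most in the sum. Their mean intensities were 7569 and 11051 in the control clone and 7117 and 10656 in the downregulated clone. Summed intensities of 6 T-cell markers were 45.1 to 54.6, and of 5 epithelial markers 59.8 to 71.8, over the 4 arrays. The 4 myeloid markers summed to 32.1 to 41.5 in the control clone and 43.3 to 50.5 in the downregulated clone. For 3 erythroid markers the sums were 70.6 to 79.8 and 80.4 to 87.5, in that order. No tested myeloid or erythroid marker was called. The 5 fibroblast markers summed to 181 to 240 in the control clone and 105 to 168 in the downregulated clone, with COL1A2 called lower (mean intensities 37.7 and 9.7), and their part in the results below was not tested.

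Most of the short-arm genes were lower in the downregulated clone. Of the 38 members, 36 passed the filter on dim probe sets, and DOK2 and EPHX2 did not. Of the 36 tested, 34 had a log2 difference below 0, against 50.9% of all tested genes. Both downregulated arrays lay below both control arrays for 32 members (35.9% of all genes), above both for BMP1 and SLC39A14 (34% of all genes), and the groups overlapped for REEP4 and DPYSL2. The fit called 26 members lower, beside 20.6% of all genes called lower, and limma called 0 members higher, beside 20.6% of all genes called higher. At an unadjusted p under 0.05 limma gave 28 lower and 0 higher. The median log2 difference of the tested members was -0.56, with a middle range (quartiles) of -0.96 to -0.31, against -0.01 over all genes. At most 50% of the control level was left for 8 members (3.77% of all genes), between 50% and 75% for 14, and more than 75% for the remaining 14. All these counts rest on the contrast from which the members were chosen, so nothing is inferred from how far they stand from the shares over all genes.

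Both downregulated arrays showed the lower level alike. Against the mean of the control arrays, the median member stood at -0.57 on one downregulated array and -0.53 on the other, while the control arrays stood at -0.01 and 0.01. Over all genes the same medians lay between -0.01 and 0.002. The control arrays differed from each other by a median of 0.12 per member and the downregulated arrays by 0.09. The difference between clones was larger than both replicate differences for 30 of the 36 tested members. That count was not made over all genes, so nothing is inferred from it. Non-overlap of the groups, used above, is another measure and not comparable with it. By that measure, both downregulated arrays lay below both control arrays for 35.9% of all genes and above both for 34%. The widest gaps between replicates were 0.48 for CHMP7 in the control clone and 0.38 for REEP4 in the downregulated clone.

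**Figure D1:**
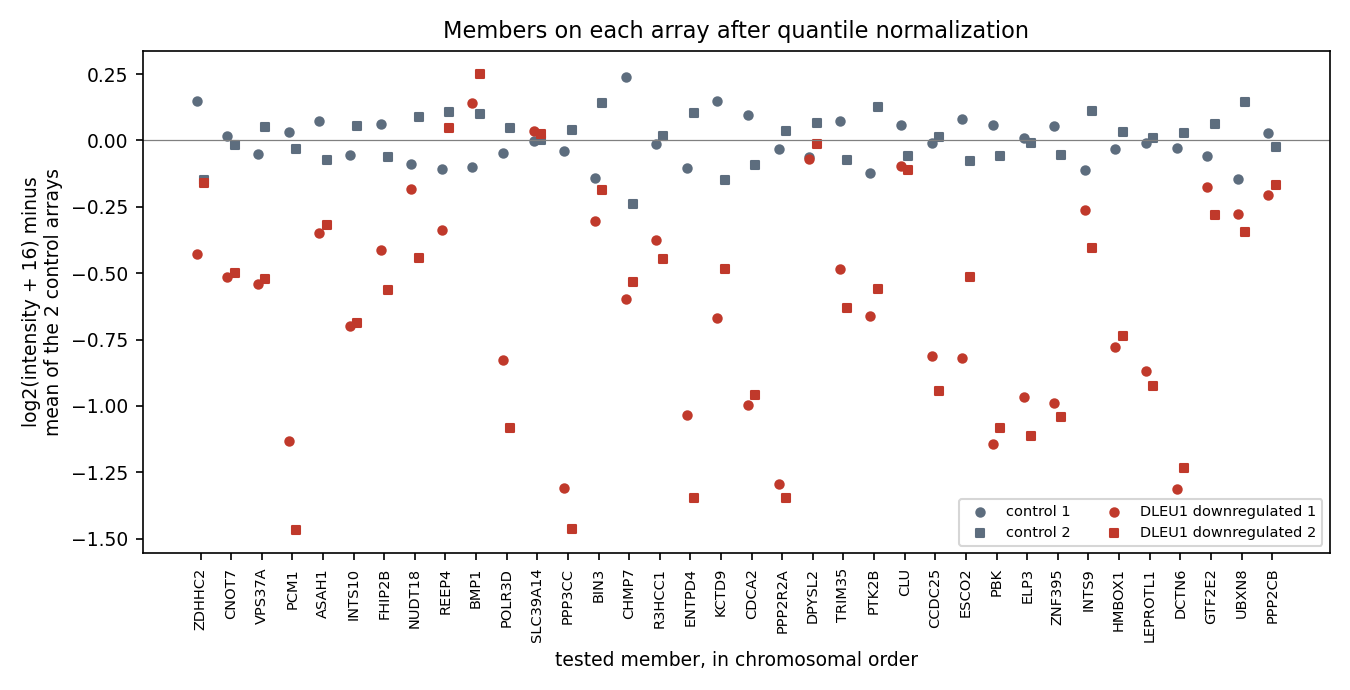
Each tested member in chromosomal order (x axis) with its log2(intensity + 16) on each array minus the mean of both control arrays (y axis, after quantile normalization). Grey symbols are control arrays and red symbols DLEU1-downregulated arrays, with circles for replicate 1 and squares for replicate 2. For 32 of 36 genes both red symbols lie below both grey ones.

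Scaling bore on the size of nearly all differences, and most calls ended in the fit on the deposited values. On the intensities as deposited, without quantile normalization, the median over all genes was itself 0.19, so that the members' median of -0.27 lay 0.46 below it, against 0.55 below it after quantile normalization. There, 27 of 36 members had a difference below 0 and 33 lay below the median of all genes. The fit on the deposited values called 9 members lower (5.74% of all genes) and limma called 0 higher (20.3%; 0 also at an unadjusted p under 0.05), and all 9 were also called lower after quantile normalization. These were PCM1, POLR3D, PPP3CC, ENTPD4, PPP2R2A, PBK, ELP3, ZNF395 and DCTN6. The other 17 calls ended, among them that of CDCA2 (-0.98, and -0.65 as deposited), narrowly, at a limma adjusted p of 0.0504. Also among them were LEPROTL1 (-0.90 and -0.57), CCDC25 (-0.88 and -0.52), HMBOX1 (-0.76 and -0.45), INTS10 (-0.69 and -0.34) and CNOT7 (-0.51 and -0.13). The called differences of ASAH1, GTF2E2 and PPP2CB, which were -0.33, -0.23 and -0.19, became 0.017, 0.12 and 0.16 as deposited, which is -0.17, -0.06 and -0.02 relative to the median of all genes. The uncalled differences of REEP4, ZDHHC2, BIN3 and DPYSL2 (-0.15, -0.29, -0.25 and -0.04) became 0.13, 0.014, 0.033 and 0.32 as deposited. Those of INTS9 and UBXN8 (-0.33 and -0.31) turned only with median centring, to 0.0090 and 0.011.

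Among the genes of transcription and RNA machinery, all 8 members were tested, 7 were called lower (20.6% of all genes) and both downregulated arrays lay below both control arrays for all 8 (35.9% of all genes). Their median log2 difference was -0.73. As deposited it was -0.39, with 3 called lower (5.74% of all genes). ELP3, the catalytic subunit of the Elongator complex that modifies transfer RNAs, read 472 and 465 on the control arrays, against 232 and 208 on the downregulated arrays. Its log2 difference was -1.04 ± 0.09, which leaves 48.6% of the control level. ZNF395, a zinc finger protein, read 367 and 339 against 170 and 163 (-1.02 ± 0.10). POLR3D, a subunit of RNA polymerase III, which transcribes transfer RNA genes, read 170 and 182 against 92.2 and 74.6 (-0.96 ± 0.14). HMBOX1, a homeobox protein that binds telomeric repeats, read 408 and 427 against 237 and 244 (-0.76 ± 0.09). In each of these 4 genes the lower of the control arrays stood well above the higher of the downregulated arrays. The remaining members differed less. INTS10, a subunit of Integrator, had 61.8% of its control level left, and CNOT7, a deadenylase of the CCR4-NOT complex that shortens messenger RNA tails, 70.3%. INTS9, which forms the Integrator cleavage module with its catalytic partner, had 79.3% left and was not called. GTF2E2, a subunit of the general transcription factor TFIIE, was called with 85.3% left, a difference that turned to 0.12 as deposited.

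The genes of the centrosome, of chromosomes and of cell division had a median difference of -1.05 over 6 tested members, 5 of them called lower (20.6% of all genes). As deposited it was -0.70, with 3 called lower (5.74% of all genes). PCM1, a scaffold of the satellites around the centrosome, read 1668 and 1592 on the control arrays, against 734 and 578 on the downregulated arrays, a log2 difference of -1.30 ± 0.10. DCTN6, a subunit of dynactin, the cofactor of the dynein motor, read 1303 and 1354 against 525 and 555 (-1.27 ± 0.07). PBK, a kinase of dividing cells, read 2218 and 2041 against 954 and 995 (-1.11 ± 0.06). CDCA2, which brings a protein phosphatase to chromosomes at the end of mitosis, read 642 and 561 against 293 and 301 (-0.98 ± 0.09). The groups were far apart for these 4. Replicates differed most for PCM1 in the downregulated clone, and next for CDCA2 in the control clone. ESCO2, an acetyltransferase for sister chromatid cohesion, was dimmer and had a difference of -0.67 ± 0.19. REEP4, which keeps endoplasmic reticulum away from mitotic chromosomes, overlapped between the groups, and its difference of -0.15 turned to 0.13 as deposited.

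Among phosphatase subunits, kinases and adaptors, 4 of the 5 members were tested and all 4 were called lower (20.6% of all genes). As deposited 2 of them, PPP3CC and PPP2R2A, were called lower (5.74% of all genes). PPP3CC, a catalytic subunit of the calcium-dependent phosphatase calcineurin, had the largest difference of the set. It read 443 and 469 on the control arrays, against 174 and 155 on the downregulated arrays (-1.39 ± 0.10), which leaves 38.2%. PPP2R2A, a regulatory B subunit of protein phosphatase 2A, read 1691 and 1773 against 697 and 671 (-1.32 ± 0.06). PTK2B, a focal adhesion kinase family member active in lymphocytes, read 282 and 338 against 190 and 205 (-0.61 ± 0.12). PPP2CB, a catalytic subunit of the same phosphatase as PPP2R2A, read 1159 and 1117 against 984 and 1011 (-0.19 ± 0.06). PPP2CB thus kept 87.8% of its control level, and as given above its difference turned to 0.16 as deposited. The adaptor DOK2 was too dim to be tested.

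Genes of membrane traffic, ESCRT and protein fate were lower by smaller amounts. All 9 were tested, 6 were called lower (20.6% of all genes), both downregulated arrays lay below both control arrays for all 9 (35.9% of all genes), and the median was -0.53. As deposited the median was -0.27 and limma called 0 of the 9 lower (1 at an unadjusted p under 0.05). LEPROTL1, an endosomal membrane protein, read 590 and 599 against 318 and 305 (-0.90 ± 0.08). KCTD9, a BTB-domain protein, read 386 and 310 against 212 and 243 (-0.58 ± 0.12). CHMP7, the ESCRT-III subunit that reseals the nuclear envelope, read 347 and 245 against 188 and 197 (-0.56 ± 0.15). CHMP7 was the member whose control arrays differed most from each other, and the lower of them was still above both downregulated arrays. TRIM35, a RING-finger protein, read 164 and 146 against 106 and 93.9 (-0.56 ± 0.14). VPS37A, a subunit of ESCRT-I, and FHIP2B were called with differences of -0.53 and -0.49. UBXN8, an endoplasmic reticulum adaptor, ZDHHC2, a palmitoyltransferase, and BIN3, a BAR-domain protein, had differences of -0.31, -0.29 and -0.25, were not called, and turned above 0 under other scalings as given above.

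Enzymes and transporters of metabolism were split, with 2 of 4 tested called lower (20.6% of all genes). As deposited 1, ENTPD4, was called lower (5.74% of all genes). ENTPD4, a nucleotide phosphatase of the Golgi and lysosomes, read 1326 and 1532 on the control arrays, against 687 and 551 on the downregulated arrays (-1.19 ± 0.11). ASAH1, the acid ceramidase of lysosomes, read 1771 and 1596 against 1317 and 1346 (-0.33 ± 0.06), and turned to 0.017 as deposited. NUDT18, a nucleotide hydrolase, read 78.2 and 90.4 against 72.1 and 57.7 (-0.31 ± 0.17) and was not called. SLC39A14, a zinc and iron importer, read 1331 and 1332 against 1366 and 1354 (0.03 ± 0.05), a difference within its error. As deposited it was 0.38, and with median centring 0.42, where it was called higher and the median over all genes was 0.23. EPHX2, a soluble epoxide hydrolase, was too dim to be tested.

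Of the secreted proteins, neither was called. BMP1, the protease that trims procollagens, read 41.7 and 50.1 against 52.0 and 57.5 (0.20 ± 0.18). CLU, the chaperone clusterin, read 14.5 and 12.2 against 11.5 and 11.1 (-0.10 ± 0.25), near the edge of the filter on dim probe sets. Both were dim, so their values carry wide errors. Among the remaining genes, CCDC25, a membrane protein, read 847 and 861 against 480 and 437 (-0.88 ± 0.08), and R3HCC1 read 403 and 412 against 310 and 295 (-0.41 ± 0.09). Neither was called as deposited. DPYSL2, a regulator of microtubules, read 768 and 840 against 763 and 795 (-0.04 ± 0.07, and 0.32 as deposited), with overlapping groups.

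Most other probe sets of the same genes went the same way, by varying amounts. Beside the 36 brightest probe sets, 42 further probe sets of these genes were tested, and 36 of them had a difference below 0, while 15 were called lower (16.7% of all probe sets) and limma called 0 higher (17%), with 19 lower and 1 higher at an unadjusted p under 0.05. Among the 22 members with more than 1 tested probe set, every one of these was below 0 for 17. The differences of PPP3CC probe sets ranged from -1.66 to -0.41, those of PCM1 from -1.30 to -0.08 and those of ELP3 from -1.39 to -1.04. Bright probe sets could disagree in size. For ASAH1 the brightest, which carries the cross-hybridisation suffix _x_at, had -0.33 and another had -1.29. CCDC25 had -0.88 in its brightest probe set and -0.10 in the other. Probe sets above 0 came from INTS10 (0.47 and 0.14, against -0.69 in the brightest), ZDHHC2 (0.28), BIN3 (0.27), BMP1 (0.88) and SLC39A14 (0.04), and none of these was called. Probe sets of 1 gene read the same RNA on the same arrays, so they are not replicates.

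**Figure D2:**
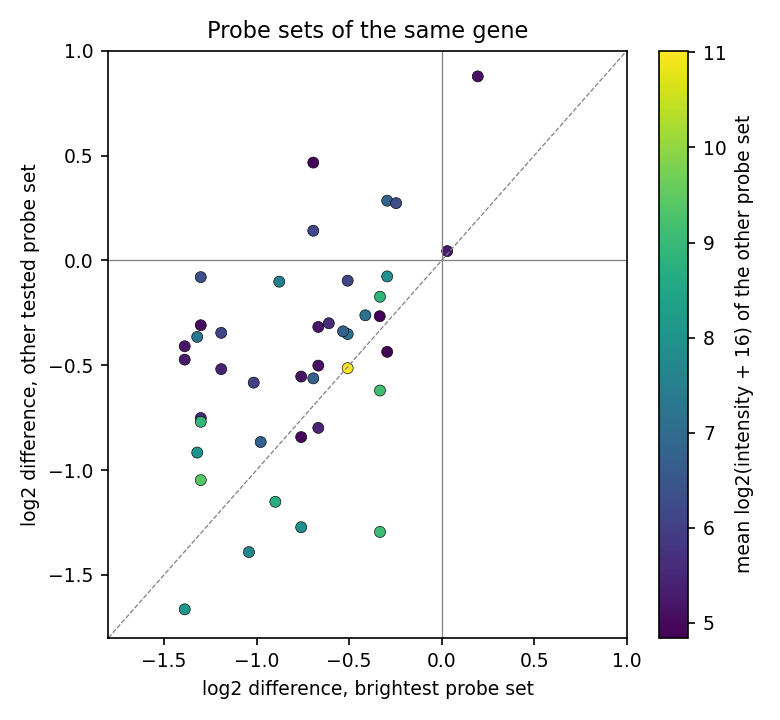
The log2 difference of each of the 42 further tested probe sets (y axis) against that of the brightest probe set of its gene (x axis), with the dashed line marking equal values and colour giving the mean log2(intensity + 16). Of the 42 points, 36 lie below 0 on the y axis, and those above 0 have mean log2 values of 6.84 or less.

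The order of genes in the RefSeq annotation of GRCh38.p14 placed the members in a stretch from ZDHHC2 and CNOT7 to PPP2CB, in which 81 genes were tested. The 45 tested genes of the stretch that are no members had a median difference of -0.43, with 18 called lower (20.6% of all genes). As deposited 10 were called lower (5.74%). After quantile normalization limma called 0 of them higher, with 2 higher and 20 lower at an unadjusted p under 0.05. Several of them differed more than any member. FBXO16, an F-box gene, had the largest difference of the stretch, with mean intensities of 263 and 30.5 (-2.59 ± 0.14). ADAMDEC1 and ADAM28, neighbouring metalloprotease genes, had -1.97 and -1.82, PNOC, the precursor of the peptide nociceptin, had -1.69, and BNIP3L, a mitophagy receptor, went from 1312 to 424 (-1.60 ± 0.07). SARAF, a regulator of calcium entry, went from 2331 to 1117 (-1.05 ± 0.05). The death receptor genes TNFRSF10B and TNFRSF10A, which encode the receptors through which TRAIL kills cells, had -0.66 and -0.43 and were called, calls that ended as deposited (-0.32 and -0.10), while the decoy receptor gene TNFRSF10C was dim, with means of 9.6 and 22.2, and was not called. GSR, the glutathione reductase, went from 381 to 368 (-0.05 ± 0.11, and 0.28 as deposited), a difference within its error.

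The median of the non-members was lower among brighter genes. With the filter on dim probe sets raised to the 60th percentile, 22 non-members of the stretch were tested, 16 were called lower (27.2% of all genes at that filter) and their median was -0.69. The members' median was -0.56 at that filter, with 27 of 35 called lower and, by limma, 0 called higher (28.1% of all genes; 0 also at an unadjusted p under 0.05). At that filter the non-members thus had the lower median, and the difference was not tested.

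Within the stretch the differences rose and fell along the order of genes. The median over 9 neighbouring tested genes was below 0 at 77 of the 81 genes, reached its lowest value of -1.04 first at ELP3 and its highest value of 0.03 at PIWIL2, beside SLC39A14. From CCDC25 to FZD3, a run singled out after its values were seen, all 8 tested neighbours were called lower (20.6% of all genes). They were CCDC25, ESCO2, PBK, ELP3, PNOC, ZNF395, FBXO16 and FZD3. The tested genes next to the run, SCARA3 (-0.13) and EXTL3 (0.23), were not called. The full count thus follows from where the run was cut, and nothing is inferred from it. As deposited 6 of the 8 were called lower (5.74% of all genes), all but CCDC25 and ESCO2. At the end nearer to the centromere, the 4 tested genes GTF2E2, GSR, UBXN8 and PPP2CB had differences of -0.31 to -0.05, all of which but that of UBXN8 turned above 0 as deposited.

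**Figure D3:**
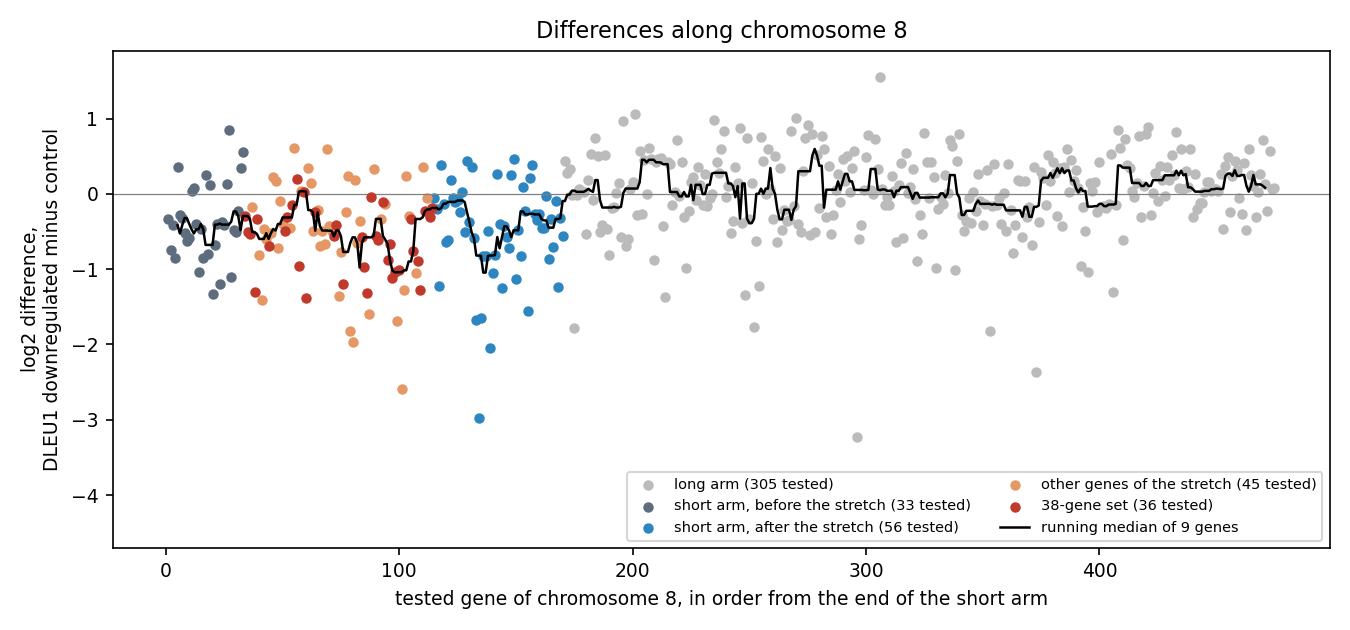
The log2 difference of every tested gene of chromosome 8 (y axis) in the order of the genes from the end of the short arm (x axis, rank and not distance), with the median of 9 neighbouring genes as a line. Members and the other genes of their stretch lie mostly below 0, as do the short-arm genes on both sides, and the line returns to near 0 at the start of the long arm.

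The rest of the short arm was lower too. Before the stretch, towards the end of the arm, 33 genes were tested, with a median of -0.41, 13 called lower and 2 higher (20.6% of all genes each way). As deposited 5 were called lower (5.74%). The 3 tested genes next to the members on that side were LONRF1 (-0.23, and 0.12 as deposited), DLC1 (0.34) and MICU3, a regulator of mitochondrial calcium uptake, which was called higher with 0.56 ± 0.14. After the stretch, 56 genes were tested, with a median of -0.42 and 32 called lower (20.6% of all genes), or 12 as deposited (5.74%). Limma called 0 of them higher, also at an unadjusted p under 0.05, where 34 were lower. The next 3 tested genes on that side were TEX15 (-0.06), PURG (-0.21) and WRN, the helicase gene of Werner syndrome, which went from 240 to 93.7 (-1.22 ± 0.12). In all, 89 of 170 tested short-arm genes were called lower (20.6% of all genes) and 2 higher, NEIL2 and MICU3. As deposited 36 were called lower (5.74%).

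On the long arm, 305 genes were tested, with a median of 0.06 (-0.0021 when the arrays were scaled to a common trimmed mean). Of these, 47 were called lower and 76 higher, beside 20.6% of all genes each way. As deposited 16 were called lower and 81 higher, beside 5.74% and 20.3% of all genes. MYC had a mean intensity of 6614 in the control clone and 5430 in the downregulated clone, a difference of -0.29 ± 0.07 that was 0.03 as deposited, where its call ended. The medians of the other autosomes and the X chromosome ran from -0.17 on chromosome 13 to 0.31 on chromosome 7, and chromosome 8 as a whole had -0.10. No test of one part of the chromosome against another was made, since all come from the contrast that the members were chosen on.

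**Figure D4:**
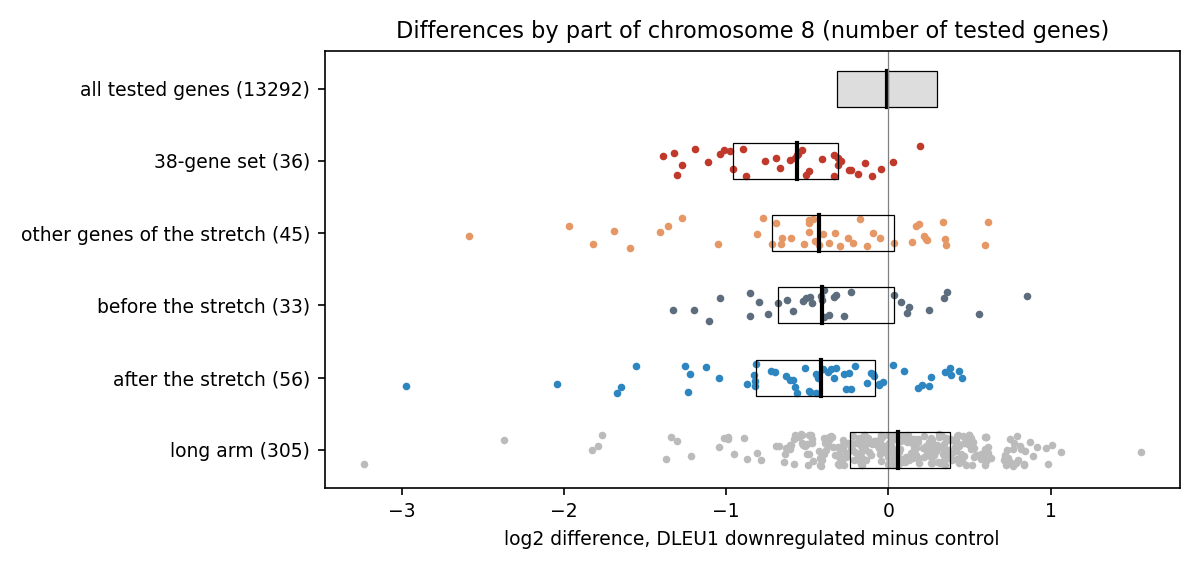
The log2 difference of tested genes (x axis) by part of chromosome 8 (rows, with the number of tested genes). Points are genes, boxes span the quartiles and the thick line is the median, and the row of all tested genes shows its box alone. The medians are -0.56 for the members, -0.43, -0.41 and -0.42 for the other parts of the short arm and 0.06 for the long arm.

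Several members are subunits of complexes whose other genes lie elsewhere in the genome. Of 72 such partner genes measured, 71 were tested, 17 were called lower and 18 higher, and their median was 0.03, with 20.6% of all genes called each way. As deposited 1 was called lower and 17 higher, with a median of 0.36, against 5.74% and 20.3% of all genes. The counts that follow are after quantile normalization. For calcineurin, PPP3CA and PPP3CB, which encode the other catalytic subunits, had differences of 0.46 ± 0.07 and 0.11 ± 0.06, beside -1.39 for PPP3CC. Of 10 tested partners in protein phosphatase 2A, 2 were called lower and 1 higher, and PPP2CA, the other catalytic subunit, had -0.20 ± 0.05, which turned to 0.17 as deposited. Integrator had 1 lower (INTS6, not called as deposited) and 3 higher (INTS1, INTS5 and INTS7) of 12, and INTS8 on the long arm of chromosome 8 had 0.03. Dynactin had 1 lower and 4 higher of 9, RNA polymerase III 1 lower and 2 higher of 9, and Elongator 1 lower and 1 higher of 4. The CCR4-NOT complex had 5 lower and 2 higher of 9, with a median of -0.16 that turned to 0.21 as deposited, where limma called 0 lower and 1 higher (1 and 3 at an unadjusted p under 0.05). The ESCRT-I and ESCRT-III genes had 5 lower and 4 higher of 14, with a median of -0.08 that turned to 0.17 as deposited, where 1 was lower (TSG101) and 4 higher. TSG101, the core of ESCRT-I, had -1.12 ± 0.06. VPS28, which like INTS8 lies on the long arm of chromosome 8, was called lower with -0.47 ± 0.09, a call that ended as deposited (-0.15). For TFIIE the single partner GTF2E1 was lower than GTF2E2, at -0.70 ± 0.10 against -0.23, and neither was called as deposited.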

How the data were processed

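RNA of the 2 clones was hybridised to 4 arrays. The authors deposited 1 table of linear signal intensities for 54613 probe sets and 62 control probe sets, made with MAS5 per the submitters' processing notes. Its version, scaling target and detection calls are not given in the sources used here.

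Control probe sets were left out. The log2(intensity + 16) values were quantile normalized, and 21845 probe sets with a mean below the 40th percentile were not tested, which left 32768. Fits used limma 3.58.1 in R 4.3.3 (lmFit, eBayes with an intensity trend), with group as the only term and Benjamini-Hochberg adjustment at 0.05. The main fit had 6.75 prior degrees of freedom, that with median centring 145 and that without the trend 2.14. As deposited they were infinite, so the errors there followed the intensity trend alone. Calls as deposited thus differ from the main calls in the error model as well as in the scale. The fits were also run on simulated data with known changes. Far fewer probe sets changed there than the 11072 called here, so that run says nothing about errors at this extent. The precision is limited by the number of arrays, 2 in each group.

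Probe sets were named by the platform annotation of 2016 (41091 with 1 symbol, 1801 with several, 11721 with none), and 41037 were matched by gene identifier to RefSeq, which also gave the order of genes. The series files name no genome build, so no coordinates are given. The order of genes follows the RefSeq annotation of GRCh38.p14.

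The members and lists were chosen with earlier results of these data known. Named genes are the members, the tested genes of their stretch, 3 on each side, DLEU1 and MYC, with array values for up to 4 members of each role group that have the largest differences. Genes outside this rule are partner subunits, cell type markers, and NEIL2, which was named after its value was seen. The alternatives were other scalings, pseudocounts, filters and thresholds, no trend, a replicate block, each array left out, and other handling of a gene's probe sets.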

Additional observations from a re-analysis of the deposited data

How the results depend on the processing

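The direction of the members' median held under each alternative run, and its size followed the scaling. As deposited it was -0.27 with 9 members called lower (5.74% of all genes). With median centring it was -0.23 with 13 lower and 2 higher (DPYSL2 at 0.36 and SLC39A14 at 0.42). Under that centring the median over all genes was 0.23, and of the 32768 probe sets 2482 were called lower and 10420 higher. The members' median was -0.60 with pseudocount 1, -0.45 with pseudocount 64 and -0.55 with no filter. It was -0.49 with the mean of a gene's tested probe sets, and -0.60 to -0.49 with each array left out. GTF2E2 turned to 0.12 as deposited and 0.17 with median centring, PPP2CB to 0.16 and 0.21, and ASAH1 to 0.017 and 0.061. Of 503 values of single members under alternatives, 378 moved by less than the spread between replicates (1 SD), 119 moved by more and the 6 of called members given above reversed.

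The calls over all probe sets, 11072, became 7293 as deposited, 7179 without the trend, 7155 at an adjusted p under 0.01, and 7005 to 10073 with an array left out, being 7005 without DLEU1-downregulated replicate 1 and 7362 without replicate 2. In those fits the lone array of a group is assumed to vary like the other group. DLEU1 kept its direction and call throughout.

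For the other genes of the stretch, the genes before it, those after it and the long arm, in that order, the medians were -0.26, -0.35, -0.19 and 0.28 as deposited, and -0.22, -0.30, -0.15 and 0.33 with median centring. With a common trimmed mean they were -0.50, -0.58, -0.44 and -0.0021, with no filter -0.13, -0.23, -0.22 and 0.034, and with the 60th-percentile filter -0.69, -0.50, -0.58 and 0.11. Pseudocount 64 gave -0.21, -0.22, -0.36 and 0.038. Pseudocount 1 gave -0.54, -0.63 and -0.46 for the short-arm regions. For the other genes of the stretch the median was -0.47 without _x_at probe sets and -0.36 with the mean of probe sets, which gave -0.27 after the stretch. With each array left out they ranged from -0.48 to -0.32, -0.44 to -0.31, -0.46 to -0.40 and 0.053 to 0.080. The causes of these shifts were not tested.

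Deviations of same-numbered arrays correlated at -0.01, so no shift shared by same-numbered arrays was seen. A correlation cannot show how the arrays were handled, so whether the numbers pair them stays unknown. With the replicate block, 24 members were called lower. Over all probe sets that fit called 11143, of which 5502 were lower.

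With 2 arrays in each group, 1 clone behind each and no detection calls, dim genes such as CLU, ESCO2 and BMP1 carry wide errors. The scaling moved most member differences. As deposited, where the error model differed too, 17 of the 26 calls ended. The largest difference among them was -0.98 for CDCA2, whose limma adjusted p as deposited was 0.0504, just over the threshold.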
